A study of Mus musculus with 19 samples.

Results

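LIM-homeodomain transcription factors of the Lhx family, the LIM-only proteins of the Lmo family and the LIM-binding proteins Ldb1 and Ldb2 were examined in retinal ganglion cells (RGCs) that project to the same or to the opposite side of the brain. The set comprised 10 genes, Lhx1, Lhx2, Lhx3, Lhx4, Lhx9, Lmo1, Lmo3, Lmo4, Ldb1 and Ldb2, chosen by name through their Ensembl identifiers in the annotation of GRCm38, out of 47069 genes in the count tables. Cells were sorted for GFP from mouse retinas at E16.5, when RGC axons grow through the optic chiasm, and their RNA was sequenced in 3 libraries of ipsilateral RGCs (iRGCs) and 3 of contralateral RGCs (cRGCs). In both populations GFP was fused to the nuclear envelope protein Sun1 and encoded at the Rosa26 locus behind a stop cassette that Cre removes, so a sorted cell or one of its ancestors had expressed Cre. For iRGCs Cre came from the Slc6a4-Cre line ET33, a Sert-Cre transgene, and for cRGCs from Pou4f2-Cre, which was inserted at the Brn3b (Pou4f2) locus. The ventrotemporal retina, where most iRGCs are born, was cut away from the Pou4f2-Cre retinas alone, so that Cre line and retinal region cannot be told apart. GEO's labels give all samples as C57/DBA F1, wild type and pooled from males and females. They do not say that the libraries of a population came from separate litters, so p-values measure the spread between these libraries. The libraries held 28193178 to 33638083 counted reads.

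A LIM-homeodomain protein carries a pair of zinc-binding LIM domains in front of a homeodomain that binds DNA at sites with a TAAT core. Ldb proteins bind the LIM domains and pair with each other, and so link LIM-homeodomain proteins into complexes on DNA, whereas Lmo proteins have LIM domains without a homeodomain and compete for the same Ldb surface. In the retina, Lhx2 is required for the optic vesicle and acts in dividing progenitors, Lhx1 marks horizontal cells, Lhx3 and Lhx4 act in precursors of photoreceptors and bipolar cells, and Isl1 and Isl2 are expressed in RGCs.

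Of the 5 Lhx genes, Lhx2 and Lhx9 form a close pair, as do Lhx3 and Lhx4, and their homeoboxes show how alike the paired genes are. Each homeobox below is the 180-base coding stretch of the homeodomain, read 5′ to 3′ from the longest coding transcript with it in GENCODE M21 (GRCm38), and capitals mark the bases that differ between the pair.
Lhx2: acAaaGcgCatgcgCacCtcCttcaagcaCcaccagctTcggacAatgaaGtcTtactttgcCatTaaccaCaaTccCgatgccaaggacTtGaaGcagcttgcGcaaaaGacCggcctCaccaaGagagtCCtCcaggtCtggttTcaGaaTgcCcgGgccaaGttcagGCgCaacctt
Lhx9: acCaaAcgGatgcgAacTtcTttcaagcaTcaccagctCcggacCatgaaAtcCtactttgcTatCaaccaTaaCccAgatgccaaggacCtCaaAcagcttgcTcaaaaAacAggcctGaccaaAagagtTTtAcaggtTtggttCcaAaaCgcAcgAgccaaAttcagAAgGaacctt
Lhx3: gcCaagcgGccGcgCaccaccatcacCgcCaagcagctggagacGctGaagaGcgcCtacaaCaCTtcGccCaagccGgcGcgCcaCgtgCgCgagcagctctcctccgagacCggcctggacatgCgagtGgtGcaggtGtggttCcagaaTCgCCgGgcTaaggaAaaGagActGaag
Lhx4: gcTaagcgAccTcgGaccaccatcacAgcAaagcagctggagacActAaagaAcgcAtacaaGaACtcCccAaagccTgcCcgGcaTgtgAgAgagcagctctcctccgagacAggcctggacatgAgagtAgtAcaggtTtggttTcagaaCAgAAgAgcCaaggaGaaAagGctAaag
Lhx2 and Lhx9 shared 143 of 180 bases, and 34 of the 37 differences lay at the third codon position. For Lhx3 and Lhx4 the shared number was also 143, with 31 differences at the third codon position. Lhx2 and Lhx4 shared 92, and Lhx1 shared at most 124, with Lhx3. The reads were 50 bases long, and no stretch of that length occurred in transcripts of more than 1 of the 10 genes on either strand. Reads free of errors could therefore be assigned within the pairs. Some stretches did occur in genes outside the set. They made up 4.65% of the stretches of Lhx3 (in the overlapping gene Gm27196), 2.75% of Ldb1 (in the neighbouring gene Pprc1) and 0.137% of Lhx9 (a repeat), and none of the other 7 genes.

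Promoters are shown for the member with the largest change and for the member that changed the other way, with TAAT or its reverse complement ATTA in capitals. The sequences are the 250 bases before the RefSeq start of each gene (GRCm38.p6), at chr2:38339031-38339280 on the plus strand for Lhx2 and chr7:109175208-109175457 on the minus strand for Lmo1, and no annotated exon lies in either.
Lhx2: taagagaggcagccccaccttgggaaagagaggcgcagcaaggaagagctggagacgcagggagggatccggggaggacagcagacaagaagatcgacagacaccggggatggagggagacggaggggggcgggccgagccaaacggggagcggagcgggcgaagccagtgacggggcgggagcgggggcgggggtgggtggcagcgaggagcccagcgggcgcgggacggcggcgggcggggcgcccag
Lmo1: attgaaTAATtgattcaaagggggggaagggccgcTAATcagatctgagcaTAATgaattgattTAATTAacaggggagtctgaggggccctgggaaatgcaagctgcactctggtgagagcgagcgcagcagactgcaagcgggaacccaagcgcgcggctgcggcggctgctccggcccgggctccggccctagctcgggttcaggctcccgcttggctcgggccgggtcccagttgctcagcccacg
The Lmo1 window held 5 matches to TAAT or ATTA, counting overlapping ones, among them a TAATTA 186 bases before the start. Of the 9 members with a promoter in the RefSeq table, 5 had TAAT or ATTA, against 54.9% of all 32851 promoters of this length. TAATTA, which reads the same on both strands, was in 1 of the 9 and in 4.84% of all. The E-box letters CANNTG, also the same on both strands, were in 3 of the 9 (Lhx9, Lmo1 and Lmo3) and in 66.2% of all. Lhx2, Lhx4, Lmo4 and Ldb1 had no TAAT or ATTA. These matches describe letters in the windows alone.

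Levels of the genes that name the sorted populations were compared before the LIM genes. Transcript levels are given in CPM, counts scaled to library size with edgeR's TMM factors. Slc6a4, the serotonin transporter gene whose regulatory sequence drives Cre in the iRGC line, had 2.06, 33.4 and 116 CPM in iRGC replicates 1, 2 and 3 and 48.1, 35.4 and 30.5 CPM in cRGC replicates 1, 2 and 3. The populations thus overlapped, and the library labelled iRGC replicate 1 was the lowest of all 6. Zic2, the transcription factor that marks ventrotemporal RGCs that avoid the midline, had 133, 173 and 157 CPM in iRGCs and 57.0, 60.2 and 65.7 CPM in cRGCs, without overlap. Pou4f2 had 74.7, 133 and 98.3 CPM in iRGCs and 191, 196 and 293 CPM in cRGCs. Zic2 and Pou4f2 thus followed the labels and Slc6a4 did not. Sun1, whose coding sequence is in the reporter, ranged from 99.0 to 153.1 CPM in iRGCs and from 271.2 to 391.1 CPM in cRGCs. Fewest genes had a count in iRGC replicate 1 (16564) and most in iRGC replicate 3 (20283).

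Other cell types also differed between the sorted populations. Over all tested genes, 23.3% were called higher and 23.1% lower in iRGCs. Of 16 markers of retinal progenitors 13 were higher in iRGCs, 1 was lower and 2 were not called. Their summed level was 10893, 10067 and 8648 CPM in iRGCs and 2624, 3729 and 3432 CPM in cRGCs. Their most abundant gene was Ccnd1, which encodes cyclin D1, and none of the 16 was at 0 in any population. All 12 markers of neurogenic precursors were higher in iRGCs. Of the 16 RGC markers, led by the neurofilament gene Nefm, 15 were lower in iRGCs and Thy1 was not called, with a summed level of 2270, 3192 and 4829 CPM in iRGCs and 12914, 11576 and 14320 CPM in cRGCs. Of the tested markers of other cells, 10 of 12 amacrine, 4 of 5 mural, 4 of 8 microglial, 4 of 6 erythroid and 1 of 6 pigment epithelium genes were higher in iRGCs, none of 2 lens genes was called, and 1 of 2 genes of optic stalk astrocytes was lower, as was the amacrine gene Barhl2 (log2 fold change -1.21). A gene was tested only if it passed a filter on low counts, and some of these markers passed through the iRGC libraries. The erythroid gene Alas2, with 31, 85 and 25 counts in iRGCs, had 0 in every cRGC library. For such a gene higher was the only possible call, so these counts do not measure a direction. Microglial markers summed to at most 27.1 CPM and erythroid markers to at most 95.5 CPM, both in iRGC replicate 2. The sorted iRGCs therefore held more progenitor and less RGC transcript per library. In bulk RNA, a different number of cells of a type and a different amount of RNA per cell cannot be told apart. Ccnd1 had 3362, 2649 and 2520 CPM in iRGCs and 277, 779 and 471 CPM in cRGCs, so that cRGC replicate 2 was the highest cRGC library. Of its exonic bases 23.4% are shared with the neighbouring gene LTO1.

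All 10 members passed the filter on low counts. At an adjusted p-value under 0.1 (edgeR's quasi-likelihood test, two-sided, Benjamini-Hochberg adjustment over 15941 tested genes), 4 were higher in iRGCs, namely Lhx2, Lhx3, Lhx4 and Lhx9. Lmo1 was lower, and the other 5 were not called. Of all tested genes 46.4% were called, 23.3% higher and 23.1% lower in iRGCs, so the 5 of 10 called members are a share close to the background. All 5 called members changed more than 2-fold, as did 23.1% of tested genes at the same threshold. Without iRGC replicate 1, the library with the lowest Slc6a4 level, 3 members were higher, since Lhx3 was no longer called, and Lmo1 was lower. The median log2 fold change of the 10 members, iRGCs over cRGCs, was 0.98, beside -0.0031 over all tested genes. The libraries of the populations did not overlap for 7 members (the called 5, Ldb1 and Ldb2), as for 55.3% of tested genes.

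**Figure D1:**
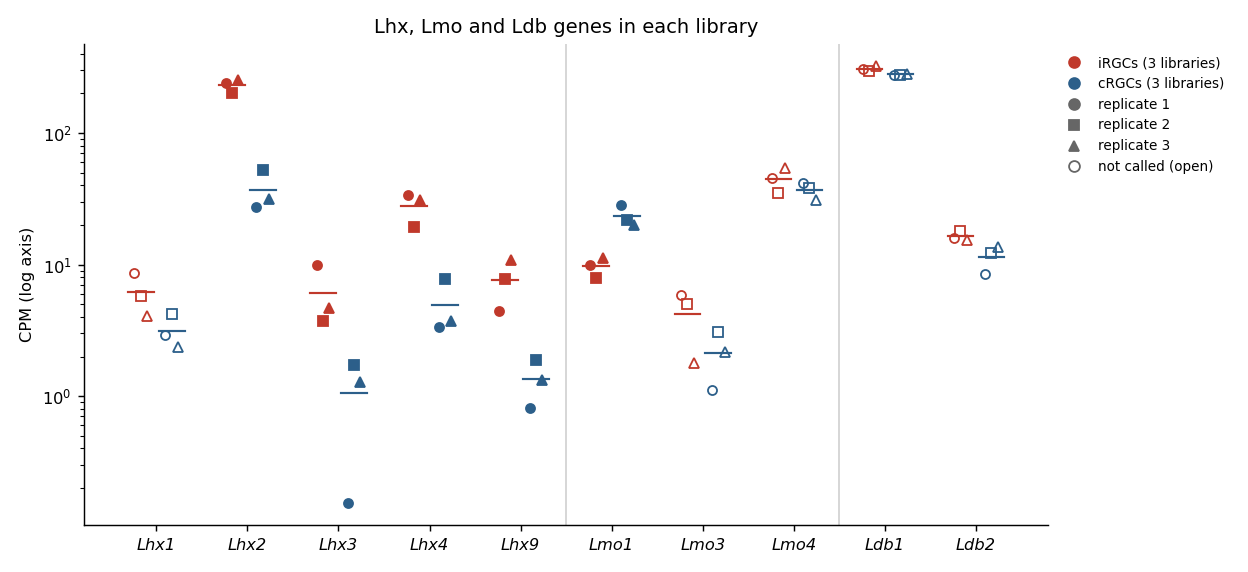
Level of each member in each of the 6 libraries, in CPM on a log axis, for iRGCs (red) and cRGCs (blue). Symbols mark the replicate number, short lines the means of 3 libraries, and open symbols the members not called. Lhx2, Lhx3, Lhx4 and Lhx9 lie higher in every iRGC library than in every cRGC library, and Lmo1 lies lower.

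Lhx2 was by far the most abundant Lhx gene. Its transcripts reached 241, 200 and 252 CPM in iRGCs and 27.3, 52.7 and 31.7 CPM in cRGCs. Every iRGC library thus lay above every cRGC library, and cRGC replicate 2 stood highest among cRGCs. The means were 231 ± 27.1 CPM (SD, n = 3) and 37.2 ± 13.6 CPM, a 6.21-fold difference. On the log2 scale the change was 2.63 (SE 0.240, edgeR's Benjamini-Hochberg adjusted p = 0.000205). Lhx2 lies on chromosome 2 from 38339281 to 38369733 on the plus strand (GRCm38), with 4393 exonic bases. Divided by that length, its level was 52.6 ± 6.18 CPM per kilobase in iRGCs and 8.47 ± 3.09 in cRGCs.

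Lhx9, the closest relative of Lhx2, was scarce. It had 4.41, 7.76 and 10.8 CPM in iRGCs and 0.807, 1.90 and 1.32 CPM in cRGCs, which is 137 to 341 counts against 21 to 55. The populations did not overlap, iRGC replicate 1 was the lowest iRGC library, and cRGC replicate 2 was again the highest cRGC library. Its log2 fold change was 2.50 (SE 0.510, edgeR's Benjamini-Hochberg adjusted p = 0.00433). The gene lies on chromosome 1 from 138825186 to 138848577 on the minus strand and has 9494 exonic bases. Per kilobase of exon, Lhx9 had 0.847%, 1.79% and 1.98% of the Lhx2 level in iRGCs and 1.37%, 1.67% and 1.93% in cRGCs. The relative level of Lhx9 to Lhx2 thus overlapped between the populations, while both genes were higher in iRGCs.

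Lhx4 and Lhx3, LIM-homeodomain factors of photoreceptor and bipolar precursors, motor neurons and the pituitary, formed the other close pair. Lhx4 had 33.6, 19.3 and 30.8 CPM in iRGCs and 3.34, 7.73 and 3.71 CPM in cRGCs, with a log2 fold change of 2.50 (SE 0.368, edgeR's Benjamini-Hochberg adjusted p = 0.000859). Lhx3 had 9.91, 3.74 and 4.70 CPM in iRGCs and 0.154, 1.73 and 1.29 CPM in cRGCs. Neither gene overlapped between the populations, and for both cRGC replicate 2 was the highest cRGC library. For Lhx3 the log2 fold change was 2.52 (SE 0.800, edgeR's Benjamini-Hochberg adjusted p = 0.0334), and its lowest library, cRGC replicate 1, held 4 counts. The call of Lhx3 rested on iRGC replicate 1: without it, the log2 fold change was 1.99 (edgeR's Benjamini-Hochberg adjusted p = 0.104). Lhx3 also shares 6.17% of its exonic bases with Gm27196, and whether the counting used strand is not given in the sources used here. Lhx4 lies on chromosome 1 from 155698031 to 155751684 and Lhx3 on chromosome 2 from 26200212 to 26208289, both on the minus strand.

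Lhx1, which marks horizontal cells, was not called. It had 8.59, 5.75 and 4.10 CPM in iRGCs and 2.92, 4.18 and 2.36 CPM in cRGCs, so iRGC replicate 3 lay just under the highest cRGC library. Its log2 fold change was 0.96 with a 95% interval from -0.02 to 1.94 (edgeR's Benjamini-Hochberg adjusted p = 0.111). The interval reaches from no difference to a 3.84-fold higher level in iRGCs. Without iRGC replicate 3 the gene was called, at a log2 fold change of 1.18 (edgeR's Benjamini-Hochberg adjusted p = 0.0760). DESeq2 called it too, at a Benjamini-Hochberg adjusted p of 0.0835. Of the 8 horizontal cell markers, which include Lhx1, 3 were higher (Prox1, Tfap2b and Ptf1a), 1 lower (Onecut3) and 4 not called. Lhx1 lies on chromosome 11 from 84518284 to 84525535 on the minus strand.

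Of the LIM-only genes, Lmo1 was lower in iRGCs, and Lmo3 and Lmo4 were not called. Lmo1, which is best known as an oncogene of T cell leukaemia, had 9.94, 7.94 and 11.1 CPM in iRGCs and 28.3, 21.9 and 20.1 CPM in cRGCs. All iRGC libraries lay below all cRGC libraries. Its log2 fold change was -1.28 (SE 0.221, edgeR's Benjamini-Hochberg adjusted p = 0.00187). Lmo1 lies on chromosome 7 from 109138572 to 109175207, and Lmo4 on chromosome 3 from 144188530 to 144205220, both on the minus strand. Lmo4, a LIM-only protein of cortical neurons and of a subset of amacrine cells, had 45.8, 34.7 and 54.7 CPM in iRGCs and 41.8, 38.1 and 31.2 CPM in cRGCs. Its populations overlapped, and its log2 fold change was 0.28 with a 95% interval from -0.15 to 0.72 (edgeR's Benjamini-Hochberg adjusted p = 0.278). That interval excludes a change as large as that of Lmo1 or of Lhx2.

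Lmo3, on chromosome 6 from 138362918 to 138581968, had 5.85, 4.98 and 1.80 CPM in iRGCs and 1.11, 3.07 and 2.16 CPM in cRGCs. Its lowest iRGC library lay below 2 of the cRGC libraries. The log2 fold change of 0.99 had a wide 95% interval, from -0.40 to 2.38 (edgeR's Benjamini-Hochberg adjusted p = 0.241), which takes in no change as well as a change of the size of that of Lmo1 in the other direction.

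Ldb1, which holds LIM complexes together, was the most abundant member in both populations. It had 308, 296 and 324 CPM in iRGCs and 278, 278 and 281 CPM in cRGCs, the smallest spread of the 10 genes within cRGCs relative to the mean. The iRGC libraries all lay above the cRGC libraries, but by 1.11-fold in the means. Its log2 fold change was 0.15 with a 95% interval from -0.06 to 0.36 (edgeR's Benjamini-Hochberg adjusted p = 0.238), which allows at most a 1.28-fold higher level in iRGCs. Ldb1 lies on chromosome 19 from 46031570 to 46045214 on the minus strand and shares 3.84% of its exonic bases with Pprc1.

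Ldb2, its relative on chromosome 5 (44472132 to 44799680), had 15.8, 18.1 and 15.3 CPM in iRGCs and 8.53, 12.3 and 13.6 CPM in cRGCs. The lowest iRGC library lay above the highest cRGC library, yet the difference did not pass the test, with a log2 fold change of 0.51 and a 95% interval from -0.01 to 1.04 (edgeR's Benjamini-Hochberg adjusted p = 0.115). With only genes of at least 10 counts in every library in the fit, it was called at an edgeR adjusted p (Benjamini-Hochberg) of 0.0960. Ldb1 made up 92.2% to 93.9% of the summed Ldb level per kilobase in iRGCs and 93.7% to 95.9% in cRGCs.

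Divided by exon length, the order of the members differed between the populations. In iRGCs Ldb1 led with 67.2 ± 3.07 CPM per kilobase (SD, n = 3), followed by Lhx2 (52.6 ± 6.18) and Lmo4 (12.8 ± 2.83), each without overlap with the next. Lmo1, Ldb2 and Lhx4 came next at 6.23, 4.91 and 4.86 CPM per kilobase, and each overlapped with its neighbour in the order. Lhx3, Lhx1, Lmo3 and Lhx9 followed between 2.01 and 0.805, also overlapping from one to the next. In cRGCs Ldb1 led with 60.6 ± 0.433 CPM per kilobase, ahead of Lmo1 (15.1 ± 2.78), Lmo4 (10.5 ± 1.52) and Lhx2 (8.47 ± 3.09), of which Lmo4 and Lhx2 overlapped. Per kilobase of exon, the most abundant LIM-domain gene of the set was therefore Lhx2 in iRGCs and Lmo1 in cRGCs. Per kilobase of the longest transcript it was Lhx2 in iRGCs, but in cRGCs Lmo4 (22.2 ± 3.22) stood above Lmo1 (18.3 ± 3.36). Lhx4, Lhx1, Lmo3, Lhx3 and Lhx9 were at 0.859 CPM per kilobase or less in cRGCs and overlapped from one to the next.

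Within each library, the summed level of the 5 Lhx members was set against that of Ldb1 and Ldb2, as a description without a test. Per kilobase, the summed Lhx level was 92.9%, 75.2% and 88.5% of the summed Ldb level in iRGCs and 12.2%, 23.6% and 13.8% in cRGCs. The populations did not overlap, and cRGC replicate 2 was the nearest to iRGCs. The direction held for the Lhx members and not for LIM-homeodomain genes as a whole: with Isl1, Isl2 and the other listed ones in the sum, a choice made after values were seen, it was 155% to 162% of the summed Ldb level in iRGCs and 313% to 366% in cRGCs. Lhx2 alone made up 82.4% to 87.0% of the summed Lhx level in iRGCs and 79.2% to 81.2% in cRGCs. The summed Lmo level was 28.7%, 22.8% and 30.7% of the summed Ldb level in iRGCs and 48.2%, 39.8% and 34.1% in cRGCs. That separation depended on the length used: divided by the longest transcript of each gene, the ranges were 27.9% to 38.3% and 36.8% to 51.6%, and without division 15.2% to 19.9% and 18.1% to 24.9%, and both overlapped. Lmo4 stood at 15.3% to 22.0% of Ldb1 in iRGCs and at 14.5% to 19.6% in cRGCs, which overlapped. Lmo1 was 46.3% to 52.0% of Lmo4 in iRGCs and 131% to 154% in cRGCs, so these members differed between the populations in makeup. The summed level per kilobase of the 3 Lmo members overlapped, at 15.9 to 23.02 CPM in iRGCs and 22.2 to 30.3 CPM in cRGCs. With Lmo2, which is not a member, added it did not, at 25.3 to 39.5 CPM and 53.7 to 83.8 CPM. Relative to Lhx2, Lmo4 ranged from 21.6% to 27.0% in iRGCs and from 90.0% to 191% in cRGCs. Ldb2 was 6.50% to 8.41% of Ldb1 in iRGCs and 4.24% to 6.67% in cRGCs, which overlapped.

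**Figure D2:**
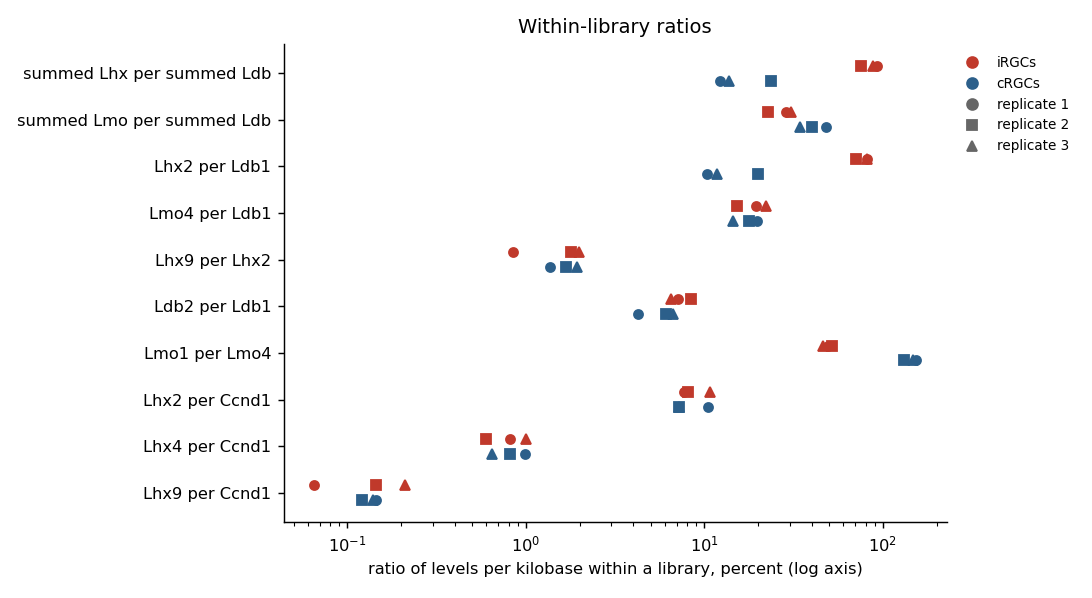
Ratios of levels per kilobase of exon within each library, in percent on a log axis, for iRGCs (red) and cRGCs (blue), with symbols for the replicate number. The summed level of the 5 Lhx members per Ldb lies between 75.2% and 92.9% in iRGCs and between 12.2% and 23.6% in cRGCs, whereas Lhx2, Lhx4 and Lhx9 per Ccnd1 overlap between the populations.

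Since progenitor and photoreceptor precursor markers also differed between the sorted cells, the Lhx genes were set against them within each library, a choice made after their values were seen. Ccnd1 was taken for progenitors as the most abundant gene of their list. Lhx2 was 7.68%, 8.10% and 10.7% of Ccnd1 per kilobase in iRGCs and 10.5%, 7.24% and 7.20% in cRGCs. Lhx4 per Ccnd1 was 0.599% to 1.004% in iRGCs and 0.646% to 0.990% in cRGCs, and Lhx9 per Ccnd1 was 0.0650% to 0.212% in iRGCs and 0.121% to 0.144% in cRGCs. For these genes and for Lhx3 (0.218% to 0.456% in iRGCs, 0.0858% to 0.424% in cRGCs) the populations overlapped in these ratios, although Ccnd1 and each of the 4 genes were higher in iRGCs. Lhx1 per Ccnd1, at 0.188% to 0.295% in iRGCs, lay below all cRGC libraries (0.578% to 1.22%). Against Otx2, a factor of photoreceptor and bipolar precursors with a log2 fold change of 2.37 (SE 0.282, edgeR's Benjamini-Hochberg adjusted p = 0.000355), Lhx4 was 6.68% to 10.2% in iRGCs and 7.56% to 8.26% in cRGCs. Of the 12 markers of photoreceptor and bipolar precursors 8 were tested, 6 were higher in iRGCs (among them Otx2, Crx and Prdm1), Rxrg was lower and 1 was not called. The summed level of that list was 1094, 862 and 885 CPM in iRGCs and 226, 337 and 273 CPM in cRGCs, with Neurod1 as its most abundant gene, and Nr2e3, Vsx1 and Grm6 were at 0 in every cRGC library. The part of progenitors and precursors in the higher Lhx levels of iRGCs was not tested.

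**Figure D3:**
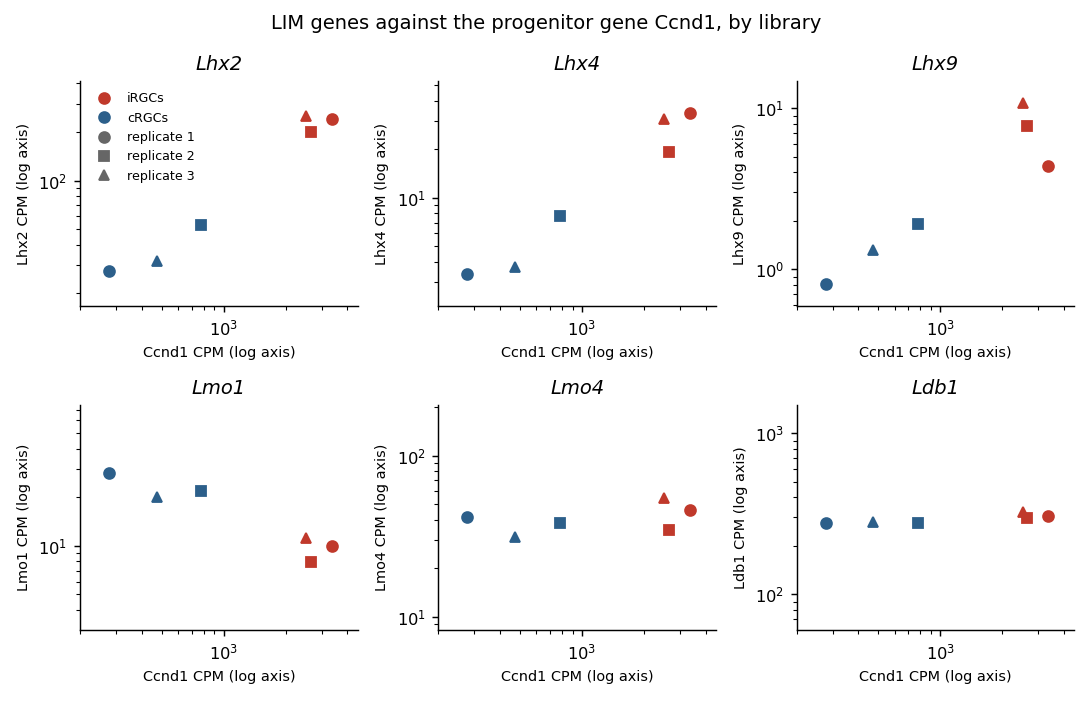
Level of 6 LIM genes against that of the progenitor marker Ccnd1 in each library, in CPM on log axes, for iRGCs (red) and cRGCs (blue), with symbols for the replicate number. Lhx2, Lhx4 and Lhx9 have their highest cRGC value where Ccnd1 is highest among cRGCs, at 779 CPM, and Ldb1 stays between 278 and 324 CPM across all libraries. Among iRGCs, Ccnd1 and Lhx4 are highest in replicate 1, whereas Lhx2 and Lhx9 are highest in replicate 3, where Ccnd1 is lowest, at 2520 CPM.

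Among other LIM-homeodomain and LIM-only genes, none was called higher in iRGCs. Of 8 listed genes (Lhx5, Lhx6, Lhx8, Isl1, Isl2, Lmx1a, Lmx1b and Lmo2), 4 passed the filter, 3 were lower in iRGCs and Lhx5 was not called. Over all tested genes, 23.1% were lower. Isl1, an Islet factor of RGCs, had 137, 178 and 174 CPM in iRGCs and 644, 533 and 708 CPM in cRGCs. Its log2 fold change was -1.94 (SE 0.149, edgeR's Benjamini-Hochberg adjusted p = 0.000205). Isl2, the Islet factor found in RGCs that cross the midline, had 19.1, 21.6 and 23.9 CPM in iRGCs and 130, 111 and 45.7 CPM in cRGCs. The Islet genes thus fell together in iRGCs, and both are also among the 16 RGC markers above. Set against the RGC gene Rbpms within each library, a ratio also chosen after values were seen, Isl1 was 169% to 289% in iRGCs and 194% to 259% in cRGCs, and Isl2 was 41.8% to 72.7% and 30.2% to 77.3%. Both overlapped between the populations, which Lmo1 did not, at 27.4% to 53.3% of Rbpms in iRGCs and 18.8% to 21.8% in cRGCs. Lmo2 per Rbpms overlapped too, at 39.7% to 106% in iRGCs and 28.6% to 89.2% in cRGCs. The part of the lower RGC transcript content in the lower levels of Isl1, Isl2 and Lmo1 was not tested.

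Lmo2, a LIM-only protein of blood and endothelial lineages, had 10.3, 38.2 and 35.6 CPM in iRGCs and 51.9, 61.1 and 133 CPM in cRGCs. The populations did not overlap, with a log2 fold change of -1.55 (SE 0.496, edgeR's Benjamini-Hochberg adjusted p = 0.0347). Without cRGC replicate 3, the library where Lmo2 was highest, the change was -1.01 and was not called (edgeR's Benjamini-Hochberg adjusted p = 0.140). Of 12 endothelial markers 6 were tested, and all 6 were called higher in iRGCs. Pecam1 (300, 1716 and 9 counts in iRGCs, 0, 21 and 0 in cRGCs) passed the filter with the help of iRGC counts, which favours that direction. The same held for Flt1 (555, 1602 and 82 counts in iRGCs, 30, 16 and 5 in cRGCs). Over all 12, tested or not, the summed level went in the opposite direction to Lmo2. It was 451, 661 and 436 CPM in iRGCs and 88.7, 109 and 71.8 CPM in cRGCs. Kdr made up 81.2%, 48.5% and 95.9% of the sum in iRGC replicates 1, 2 and 3. Without Kdr the list summed to 84.5, 340 and 18.0 CPM in iRGCs and to at most 5.73 CPM in cRGCs, so iRGC replicate 2 stood apart, with Cdh5 at 81.3 CPM and Pecam1 at 53.0 CPM. Cdh5, Tie1, Erg and Sox17 were at 0 in every cRGC library. Lhx5, the closest relative of Lhx1, had 65, 22 and 30 counts in iRGCs and 0, 2 and 15 counts in cRGCs and was not called, with an edgeR adjusted p (Benjamini-Hochberg) of 0.167. Without cRGC replicate 3 it was called, at an edgeR adjusted p (Benjamini-Hochberg) of 0.0783. With 0 and 2 counts left in cRGCs, only a higher level in iRGCs could be called there. Lhx6, Lhx8, Lmx1a and Lmx1b did not pass the filter and had at most 17 counts in any library.

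Partners of Ldb complexes were taken from a list of 17 genes, of which 12 were tested. Of these, 7 were higher in iRGCs, 2 lower and 3 not called, beside 23.3% of all tested genes higher and 23.1% lower. The E proteins Tcf3, Tcf4 and Tcf12, which pair with bHLH factors in Ldb complexes, were all higher, by 1.01, 1.04 and 0.93 on the log2 scale (SE 0.127, 0.129 and 0.105). The neurogenic bHLH genes Neurog2 (1.99) and Neurod4 (2.44) were also higher, and both are among the neurogenic precursor markers above. Rbbp8, which encodes CtIP, a partner of LMO4 and of DNA repair proteins, was higher by 1.46 (SE 0.159). Ssbp proteins, which bind Ldb and protect it from degradation, were split. Ssbp2 was higher, with mean levels of 65.2 ± 7.32 CPM for iRGCs (SD, n = 3) and 46.6 ± 3.13 CPM for cRGCs, though 22.1% of its exonic bases are shared with the gene 4833422C13Rik. Ssbp3 was lower, with 367, 351 and 429 CPM in iRGCs and 479, 464 and 504 CPM in cRGCs. Its log2 fold change was -0.33 (SE 0.109, edgeR's Benjamini-Hochberg adjusted p = 0.0372). The call was lost without iRGC replicate 2 (-0.28, edgeR's Benjamini-Hochberg adjusted p = 0.145) and without cRGC replicate 3 (-0.30, edgeR's Benjamini-Hochberg adjusted p = 0.105). Deaf1, a DNA-binding partner of LMO4, was lower, with a log2 fold change of -0.66 (SE 0.121). Ssbp4, the LDB ubiquitin ligase gene Rlim and Gata2 were not called. Ssbp4 was called higher without cRGC replicate 2, at a log2 fold change of 0.36 (edgeR's Benjamini-Hochberg adjusted p = 0.0739). Gata2, with 46 counts in cRGC replicate 3 and 0 in the other cRGC libraries, was called without that library (edgeR's Benjamini-Hochberg adjusted p = 0.00447) and by limma voom (Benjamini-Hochberg adjusted p = 0.0542). Without that library all its cRGC counts were 0, so only a higher level in iRGCs could be called there. Tal1, Tal2, Lyl1, Gata1 and Gata3, partners of Ldb1 in blood cells, were not tested in the main fit. With a library left out, Tal1, Tal2 and Lyl1 passed the filter in some fits. Tal1 was called higher without iRGC replicate 1 or without cRGC replicate 2 (edgeR's Benjamini-Hochberg adjusted p = 0.0897 and 0.0912). Its cRGC counts were 0, 6 and 0, so it passed through iRGC libraries and only a higher call was possible. It was not called without cRGC replicate 1 or without cRGC replicate 3 (edgeR's Benjamini-Hochberg adjusted p = 0.360 and 0.369). Tal2 and Lyl1 were not called in any fit. Gata1 had 0 counts in all 6 libraries, which allows up to 0.0927 to 0.115 CPM per library at a floor of 3 counts.

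**Figure D4:**
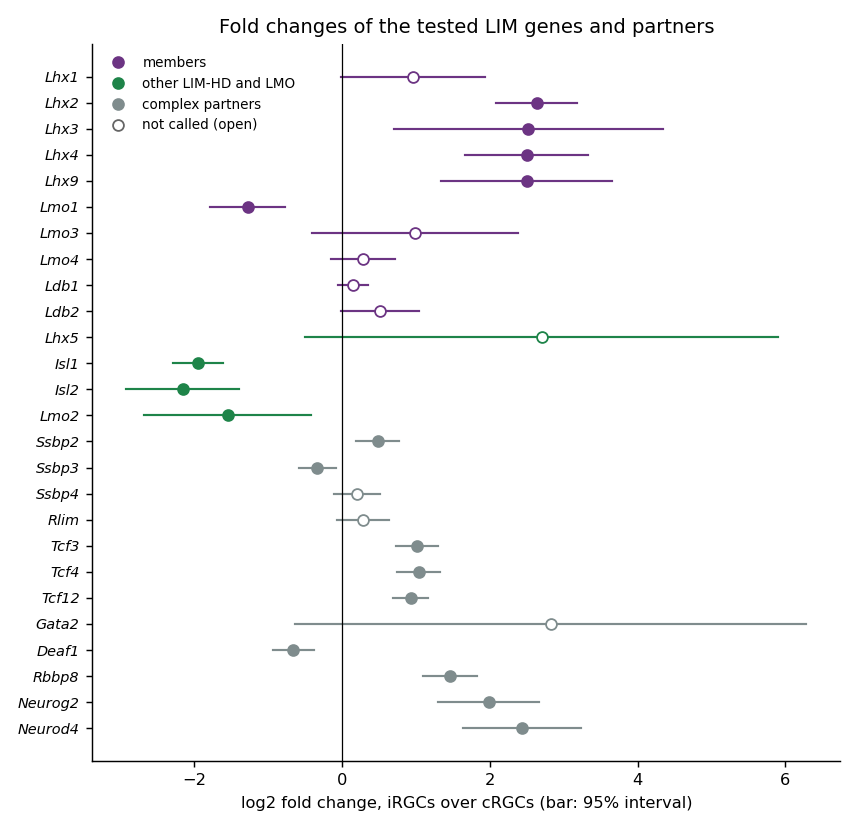
Log2 fold change of iRGCs over cRGCs with its 95% interval (edgeR) for the 10 members (purple), the 4 tested genes among other LIM-homeodomain and LIM-only genes (green) and the 12 tested complex partners (grey). Open symbols mark genes not called. Lhx2, Lhx3, Lhx4 and Lhx9 lie between 2.50 and 2.63, Lmo1 lies at -1.28, and the interval of Ldb1 is the narrowest of the members.

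Genes with a pattern like that of Lhx2 over the 6 libraries were ranked by the mean absolute difference of centred log2 CPM among 11674 protein-coding genes with a mean of at least 100 counts. The 5 nearest were Agtrap (0.0441), which encodes an angiotensin receptor-associated protein, Notch1 (0.0679), the Notch receptor gene, Slc1a3 (0.0747), a glutamate transporter gene, Shisa2 (0.0866) and Ect2 (0.0901), a gene of cell division. Agtrap had 42.4, 32.2 and 43.6 CPM in iRGCs and 4.77, 8.59 and 5.36 CPM in cRGCs. As in Lhx2, iRGC replicate 2 was the lowest iRGC library and cRGC replicate 2 the highest cRGC library. Ccnd1 ranked 171 and Zic2 ranked 1064 in likeness to Lhx2. This measure also counts the size of the change, and the log2 fold change was 2.48 for Ccnd1 and 1.34 for Zic2. In Pearson correlation over the 6 libraries, Ccnd1 reached 0.985 and Zic2 0.953 with Lhx2. For Lhx9 the nearest genes were Smim3 (0.153), the Polycomb gene Pcgf5 (0.193), Efcab11, Ccdc158 and the histone chaperone gene Asf1b (0.216), so the likeness was looser than for Lhx2. Ccnd1 ranked 191 and Zic2 ranked 772 for Lhx9, with Pearson correlations of 0.929 and 0.952.

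Noncoding genes at the members were few in counts. Of 19 that overlap a member or start within 5 kb of its start, 4 were tested, and the highest level in any library was 4.44 CPM. That gene, Gm27197, lies within Lhx2 on the opposite strand, on chromosome 2 from 38347357 to 38348316, with 138, 41 and 48 counts in iRGCs and 0, 0 and 9 counts in cRGCs. It was called higher in iRGCs (edgeR's Benjamini-Hochberg adjusted p = 0.0377). However, it passed the filter on low counts through the iRGC libraries alone, so its call could take only that direction. Without strand, reads of Lhx2 introns and of Gm27197 cannot be told apart. Lhx1os, which starts 125 bases from Lhx1 on the opposite strand, had at most 0.896 CPM and was not called.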

How the data were processed

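RNA-seq libraries of iRGCs and cRGCs were analysed (3 each). The study's 13 ATAC-seq samples were not analysed here. The authors aligned reads to mm10 with HISAT2 2.1.0, counted them on Ensembl GRCm38 genes with HTSeq 0.11.1 and deposited raw counts per gene. Tallies that name no gene (43.1% to 47.3% of all tallies per library) stayed out.

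Counts were tested with edgeR 4.0.16 in R 4.3.3 (filterByExpr, TMM, quasi-likelihood test without a block, Benjamini-Hochberg adjustment) and called at an adjusted p under 0.1. TMM factors ranged from 1.03 to 1.10 for iRGCs and from 0.921 to 0.952 for cRGCs. The biological coefficient of variation was 36.3%. SEs were the absolute log2 fold change over the square root of F. Symbols, positions and exon lengths came from GENCODE M21 for 46574 genes. Named genes were the members, all genes of the 2 LIM lists and the 5 genes most like Lhx2 or Lhx9. Noncoding neighbours, population checks and some markers were named too. Members, lists and rules were chosen with earlier results of these data known. Alternatives were DESeq2 1.42.0, limma 3.58.1 voom, other scaling, filters and thresholds, a replicate block and each library left out. The fits were tested on simulated data.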

Additional observations from a re-analysis of the deposited data

How the results depend on the processing

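Lmo1 remained lower in iRGCs, and Lhx2, Lhx4 and Lhx9 higher, in all 13 refits tried. Of 129 refits of single members, 124 kept their side of the threshold and none changed direction. Lhx1 passed with DESeq2, with at least 10 counts in every library and without iRGC replicate 3, Ldb2 passed with at least 10 counts, and Lhx3 failed without iRGC replicate 1. The log2 fold change lay between 2.44 and 2.98 for Lhx2, 2.17 and 2.84 for Lhx9, 2.28 and 3.00 for Lhx4, and -1.40 and -1.13 for Lmo1. With an absolute log2 fold change above 1 also required, 0 partners were lower, and 1930 tested genes were higher and 1758 lower. With each library left out in turn, 1 to 2 partners were lower and 7 to 9 higher, and 0 to 1 of the other LIM genes higher. DESeq2 also called 1 of these higher, Lhx5. In raw counts, the summed Lmo per Ldb log2 difference was -0.26, beside -0.57 per kilobase, and with Lmo2 in the sum it was -1.13 per kilobase. With all listed LIM-homeodomain genes in place of the 5 Lhx members, the log2 difference per Ldb turned to -1.08. Both sums were chosen after seeing the data. In cRGCs, the log2 difference of Lmo1 over Lmo4 was 0.52 per kilobase of exon, -0.28 per kilobase of the longest transcript and -0.66 in CPM, scales that were also chosen after seeing the data. The replicate numbers shared by the populations did not pair the libraries, since deviations of same-numbered libraries correlated at -0.0484 to -0.0110. With a replicate block, 4 members were higher and 1 lower, and 3316 tested genes were higher and 3435 lower. No scaling moved the median of all tested genes by more than 0.0267. Lhx3 and Lhx5 had as few as 4 and 0 counts in a library.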
